A study of Mus musculus with 10 samples.

Results

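These are RNA sequencing values for 32 genes that mark Langerhans cells, other myeloid cells and T cells, measured in keratinocytes sorted from mouse back skin. The genes were taken from a list of epidermal immune cell markers by symbol, and 30 of the 32 are in each of the gene tables, which hold 18502 genes for the Eed libraries and 18344 for the Ring1 libraries. Ccl3 and Ccl4, the remaining pair, are not analysed here. The Eed knockout (Eed -/-, n = 3) was compared with the Eed control (n = 3), and the Ring1a/b 2KO (Ring1a-/- Ring1b-/-, n = 2) with the Ring1 control (n = 2). Both control groups carry the genotype label Control, and every mouse had 4-hydroxytamoxifen, dissolved in ethanol at 20 mg/ml, put on shaved back skin on 4 successive days (100 µl a day, first at postnatal day 50) before skin was taken at postnatal day 71. The labels name neither the driver of the recombinase nor the sex of the mice, and nothing says that each library is 1 mouse, so p-values measure only the spread between these libraries.

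The epidermis holds resident immune cells among its keratinocytes. Langerhans cells are the antigen-presenting cells of this layer. They carry langerin (Cd207), depend on the receptor Csf1r and its ligand Il34, and display peptides on MHC class II proteins. In the mouse a gamma-delta T cell population, the dendritic epidermal T cells, also lives there and signals through the CD3 complex. The sort kept cells positive for EpCAM and Sca1 and high for α6-integrin, a profile of basal keratinocytes. Langerhans cells also carry EpCAM on their surface, and the protocol names no antibody against an immune cell.

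The sorted cells were keratinocytes by Krt5 in every library. Krt5, a basal keratin, had normalised read counts (reads divided by 1 size factor per library) of 737779.5, 531983 and 497711 in Eed knockouts and 410630.1, 721908 and 482714 in Eed controls. In the Ring1 table it had 121324 and 107871 in 2KO libraries and 133542 and 113885 in controls. Depth was 31699979 to 40701183 reads in Eed knockouts and 32667439 to 39006853 in Eed controls, but 19814853 and 6237389 in the 2KO libraries and 25158144 and 7162907 in the Ring1 controls. Mitochondrial genes took 2.85% to 3.58% of reads in Eed knockouts and 2.34% to 2.81% in Eed controls, and 8.16% and 12.7% in the 2KO libraries against 6.51% and 7.28% in the Ring1 controls. Eed itself had 1412, 1143 and 1339.6 in Eed knockouts and 1845, 1319 and 1706 in controls. Ring1 had 104 and 115 in 2KO libraries and 66.2 and 211 in controls, and Rnf2, which encodes Ring1b, had 720.1 and 529 in 2KO libraries and 675 and 669.7 in controls. Which exons were deleted is not named in the labels, so these whole-gene counts do not check them.

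A pair of the class II genes is shown with their promoters because the class II genes held most of the immune reads. H2-Aa and H2-Eb1 encode the alpha chain of I-A and the beta chain of I-E, and class II promoters are known for an element called the Y box, whose core letters were searched for here. The windows are from RefSeq (GRCm38.p6), 250 bases before to 50 after the gene start, 5′ to 3′ on the strand of the gene. H2-Aa is chr17:34287774-34288073 on the minus strand and H2-Eb1 is chr17:34305617-34305916 on the plus strand. Capitals mark CTGATTGG.
H2-Aa: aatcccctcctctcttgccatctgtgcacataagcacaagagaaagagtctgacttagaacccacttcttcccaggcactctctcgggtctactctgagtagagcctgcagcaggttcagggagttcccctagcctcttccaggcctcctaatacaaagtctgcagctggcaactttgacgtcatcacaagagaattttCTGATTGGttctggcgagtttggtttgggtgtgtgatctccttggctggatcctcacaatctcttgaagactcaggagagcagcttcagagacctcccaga
H2-Eb1: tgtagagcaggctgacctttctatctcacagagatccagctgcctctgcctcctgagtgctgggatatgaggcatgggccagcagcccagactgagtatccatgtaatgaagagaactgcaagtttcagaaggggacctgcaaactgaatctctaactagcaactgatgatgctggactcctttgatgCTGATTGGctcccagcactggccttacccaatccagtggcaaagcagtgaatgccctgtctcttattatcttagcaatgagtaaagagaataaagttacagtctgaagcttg
The match begins 51 bases before the start of H2-Aa and 62 before that of H2-Eb1. CTGATTGG, or CCAATCAG on the other strand, is in 4.10% of the 32851 promoters in the table and in 2 of the 26 windows found for 22 of the immune genes. Those 2 windows are the ones shown, H2-Aa and H2-Eb1, and no window was found for H2-Ab1. The letters were chosen after the expression values had been seen, and a match is a description, not a shown binding site.

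Immune transcripts were a small part of every library. In RPM (recovered reads scaled to the total of the library), the sum over the 30 genes was 125, 83.7 and 151 in Eed knockouts, against 55.7, 94.0 and 179.9 in Eed controls. The 95% exact (Clopper-Pearson) interval was 53.3 to 58.3 for control 1, the lowest, and 175 to 185 for control 3, the highest, and covers counting error only. The knockouts thus lay inside the range of the controls. The 2KO libraries had 107 (interval 103 to 112) and 90.1 (82.8 to 97.9), against 90.9 (87.2 to 94.7) and 97.9 (90.8 to 105) in the Ring1 controls. In bulk RNA, fewer immune cells and less of their RNA per cell cannot be told apart.

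**Figure D1:**
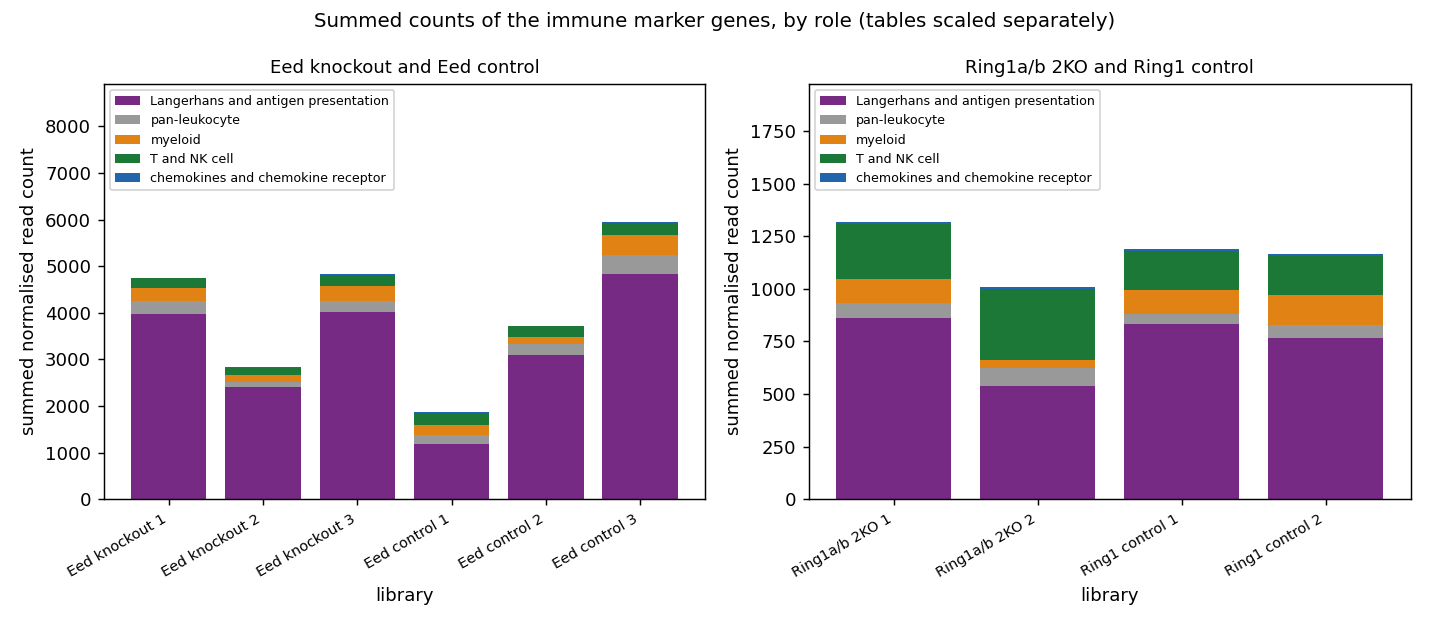
Stacked bars give the summed normalised read count of the immune marker genes in each library (y axis), coloured by role, with 1 panel per separately scaled table. In the Eed panel control 1 is the lowest bar and control 3 the highest, with the 3 knockouts between them. In the Ring1 panel 2KO library 2 has the lowest sum and the largest T and NK cell share, 33.8%.

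No immune gene passed the test in either knockout. A limma model of log2(value + 1) took in genes whose mean reached 5, and a call is a Benjamini-Hochberg adjusted p under 0.05 over all tested genes. In the Eed comparison it called 0 of 26 immune genes, also 0 at an unadjusted p under 0.05, where it called 0% of all 16122 genes and 4.73% had such an unadjusted p. In the Ring1 comparison it called 0 of 16, and 0 at an unadjusted p under 0.05, against 0.0392% and 10.4% of all 15310 genes. The authors' deposited table also called 0 immune genes in both, where it called 0.761% of all genes for Eed and 1.49% for Ring1. DESeq2 and edgeR on whole reads called 0 as well, against 0.761% and 0% of all genes for Eed and 1.57% and 0% for Ring1.

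The intervals around these changes were wide. The fitted log2 fold changes had a median of −0.11 over the 26 immune genes in the Eed knockout, beside 0.008 over all tested genes, with 11 positive. In the Ring1a/b 2KO the median was −0.20 over 16 genes, beside −0.00062, with 6 positive. The 95% interval stayed within a 2-fold change in either direction for 0 of the 26 genes in the Eed comparison and for 1 of the 16, H2-Ab1, in the Ring1 comparison. Groups were fully apart in the Eed table for 3 of the 26 immune genes (11.5%) and for 9.2% of all tested genes. Cx3cr1 was the 1 that lay higher in the knockouts, beside 5.06% of all genes, and Ptprc and Tyrobp were the 2 that lay lower, beside 4.15%. In the Ring1 table groups were fully apart for 7 of the 16 (43.8%) and for 42.9% of all tested genes, a share that groups of 2 make common. H2-Eb1, Ptprc, Cd3e and Cd3d lay higher in the 2KO, beside 21.4% of all genes, and Cd207, Cd74 and Tyrobp lay lower, beside 21.5%. In both tables the immune genes stood near the share of all genes.

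**Figure D2:**
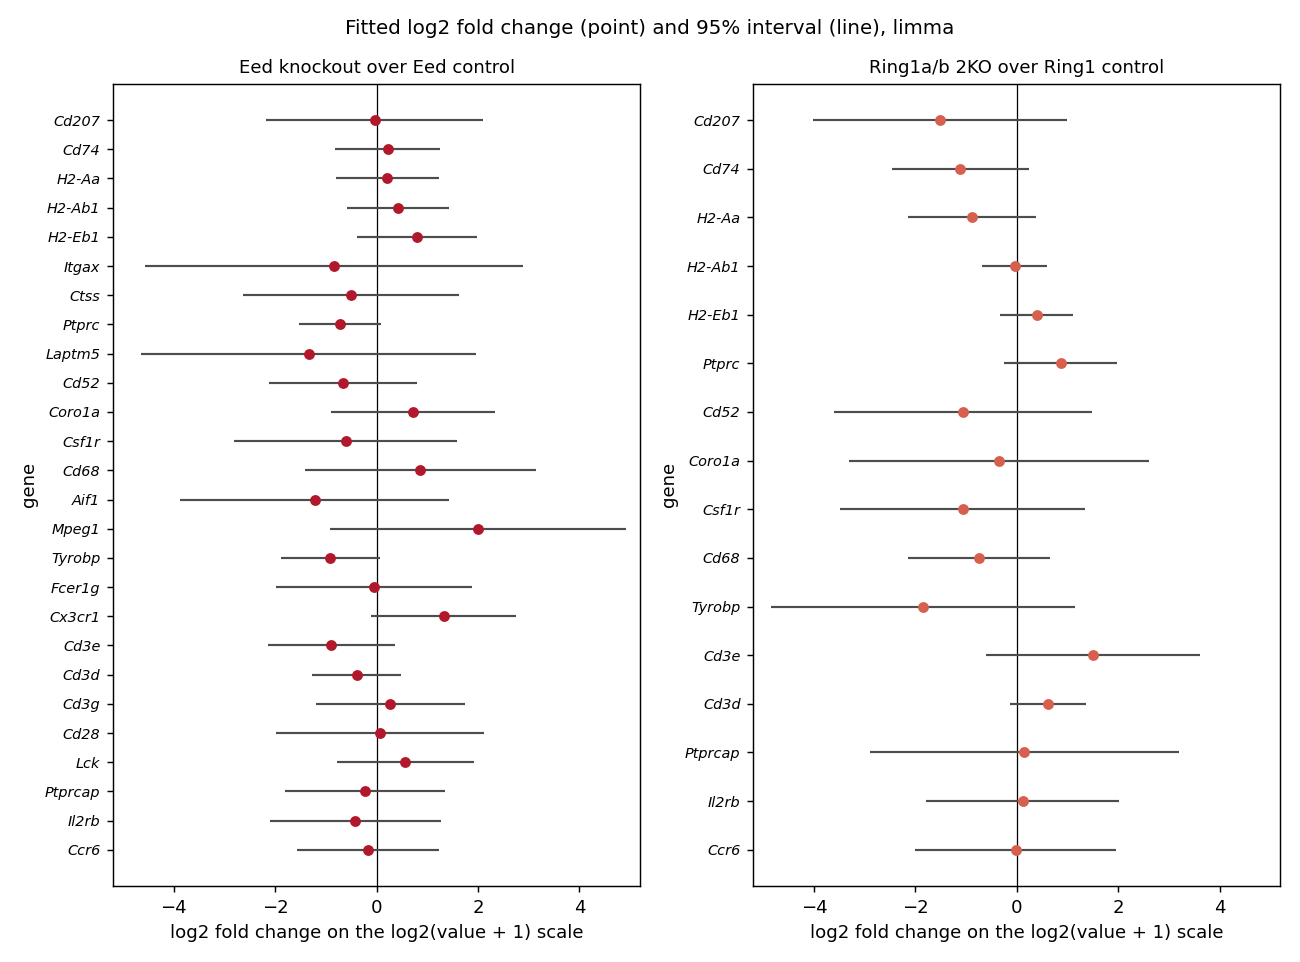
Points give the limma log2 fold change of each tested immune gene, knockout over control, on the log2(value + 1) scale (x axis), and lines its 95% interval, with genes down the y axis in the order of their roles. Every line crosses 0 in both panels, and H2-Ab1 in the Ring1 panel, at −0.68 to 0.60, is the narrowest.

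Antigen presentation genes gave most of the immune reads. H2-Ab1 and H2-Aa encode the chains of I-A, H2-Eb1 the beta chain of I-E, and Cd74 the invariant chain that escorts them through the cell. Together these 4 genes made up 80.1% to 84.1% of the summed immune count in Eed knockouts and 59.9% to 82.3% in Eed controls. The share was 53.0% to 63.8% in 2KO libraries and 65.0% to 69.1% in Ring1 controls. The H2 genes lie within 58986 bases of chromosome 17 (mm10): H2-Ab1 is ENSMUSG00000073421.5, chr17:34257689-34269419, H2-Aa is ENSMUSG00000036594.14, chr17:34282744-34287823, and H2-Eb1 is ENSMUSG00000060586.10, chr17:34305867-34316674, each given as the whole gene.

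Class II levels overlapped between Eed knockouts and controls. Cd74 had 1192, 724 and 1029.5 normalised read counts in Eed knockouts 1 to 3, against 365, 1018 and 1504 in controls 1 to 3. H2-Ab1 had 1183, 802 and 1024 in knockouts and 341, 831 and 1413 in controls. H2-Aa had 701, 462 and 686 in knockouts and 235, 676 and 897 in controls. For all of these, control 1 was the lowest library and control 3 the highest, knockout 2 was second lowest, and the knockouts lay within the control range. H2-Eb1 kept the low end of that order, with 799.8, 396 and 1132 in knockouts and 184, 538 and 689.7 in controls, but knockout 3 was its highest library. Its log2 fold change was 0.80 (95% interval −0.38 to 1.97, limma adjusted p = 0.989), 0.46 without knockout 3 and 0.22 without control 1. That of Cd74 was 0.22 (−0.81 to 1.26, limma adjusted p = 0.989).

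The class II genes of the Ring1 table differed in which group was higher, and none passed the test. Cd74 had 181 and 52.0 normalised read counts in 2KO libraries 1 and 2, against 204 and 219 in controls 1 and 2, with no overlap. H2-Aa had 111 and 37.7 in 2KO libraries and 148 and 98.0 in controls, which overlapped. 2KO library 2, the shallowest and the one with the highest mitochondrial share, was the low one for both. H2-Ab1 had 374 and 247 in 2KO libraries and 338 and 291 in controls. H2-Eb1 had 174 and 197 in 2KO libraries and 133 and 149.6 in controls, both 2KO libraries above both controls. The log2 fold changes were −1.11 for Cd74 (95% interval −2.47 to 0.24, limma adjusted p = 0.557) and 0.39 for H2-Eb1 (−0.32 to 1.10, limma adjusted p = 0.710). Without 2KO library 2 the Cd74 value was −0.22. Without 2KO library 1 it was −2.0 with a limma adjusted p of 0.0349, a call that rests on 1 2KO library and assumes that it varies as the controls do. The part that depth and mitochondrial share play in these values was not tested.

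**Figure D3:**
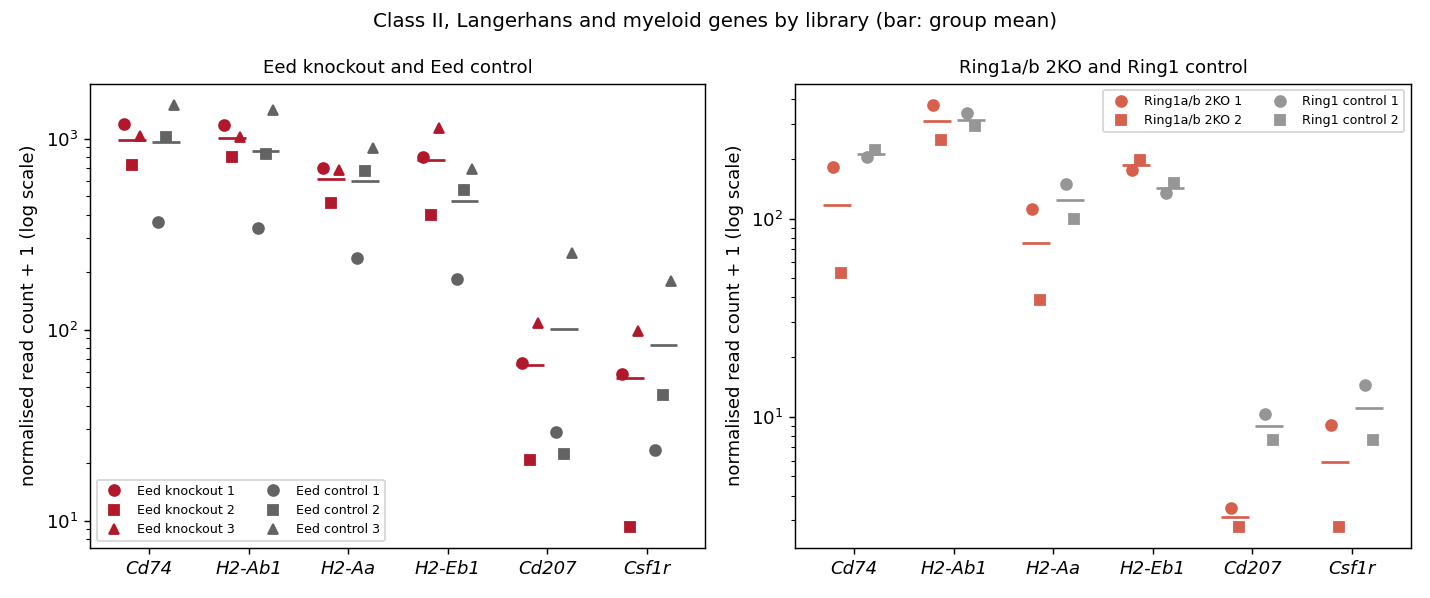
Each point is 1 library, with its normalised read count + 1 on a log y axis, knockout left of control for each gene, and the bar at the group mean. In the Eed panel control 1 (grey circle) is low and control 3 (grey triangle) high for Cd74, H2-Ab1 and H2-Aa, around the knockouts. In the Ring1 panel Cd207 and Csf1r lie near the bottom of the axis.

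Langerin reads were scarce beside those of the class II genes. Cd207 (ENSMUSG00000034783.7, chr6:83671215-83677857), the lectin of Birbeck granules, had 65.9, 19.7 and 107 in Eed knockouts and 28.2, 21.3 and 249.8 in Eed controls. Control 3 stood above all other libraries and the groups overlapped, with a log2 fold change of −0.041 (95% interval −2.18 to 2.09, limma adjusted p = 1.00). Leaving out control 3 gave 1.06. Ring1 libraries held little Cd207, with 2.47 and 1.79 in 2KO libraries and 9.38 and 6.65 in controls. The 2KO values come from 4 and 1 reads and the control values from 18 and 4, so this difference (log2 fold change −1.52, 95% interval −4.02 to 0.99, limma adjusted p = 0.676) was not detectable at this depth.

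The class II to langerin ratio varied widely between libraries. The count of H2-Ab1 over that of Cd207 was 17.9, 40.7 and 9.54 in Eed knockouts and 12.1, 39.0 and 5.66 in Eed controls. It was 151 in 2KO library 1 and 36.1 and 43.7 in the Ring1 controls, while 2KO library 2 had too few Cd207 reads for a ratio. Ciita, the master activator of class II genes, is no member of the list and was added after its values were seen. It had 109, 109.9 and 161 in Eed knockouts and 129.5, 139 and 165 in Eed controls, with knockout 1 its lowest library. Ctss, the protease that trims the invariant chain, had 28.8, 6.22 and 10.3 in Eed knockouts and 16.6, 5.07 and 63.7 in controls. Itgax, which encodes CD11c of dendritic cells, had 0, 0 and 31.6 in Eed knockouts and 7.79, 0 and 20.2 in controls. Over the 7 Langerhans and antigen presentation genes the median log2 fold change was 0.21 in the Eed knockout and, over 5 tested, −0.89 in the 2KO. Both depended on single libraries. The Eed median was −0.36 without control 1, 0.66 without control 3, and ranged between these with any other library left out. The 2KO median was −1.65 without 2KO library 1 and −0.12 without 2KO library 2, and −0.26 without control 1.

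Of the genes shared by leukocytes, Ptprc was lower in all Eed knockouts without passing the test. Ptprc, which encodes the leukocyte surface phosphatase CD45 (ENSMUSG00000026395.16, chr1:138062861-138175708), had 73.1, 75.7 and 108 in Eed knockouts and 132, 118 and 173 in Eed controls. All knockouts lay below all controls, with a log2 fold change of −0.72 (95% interval −1.53 to 0.094, unadjusted p = 0.0766, limma adjusted p = 0.989). The order was the other way in the Ring1 table, with 64.9 and 66.3 in 2KO libraries and 31.8 and 39.9 in controls, a log2 fold change of 0.86 (−0.25 to 1.98, limma adjusted p = 0.584). The difference between the 2 knockouts was not tested, since each was fitted only with its own controls.

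For the remaining leukocyte genes the Eed groups overlapped. Laptm5, a lysosomal membrane protein of blood cells, had 69.5, 0 and 52.1 in Eed knockouts and 14.6, 45.7 and 81.9 in controls, with knockout 2 at 0 reads. In that library 3 reads come to 3.1 normalised counts, the limit that a count of 0 allows. Cd52, a small surface glycoprotein of lymphocytes and myeloid cells, had 64.7, 15.6 and 40.2 in knockouts and 41.9, 36.5 and 108 in controls. Coro1a, an actin-binding protein of leukocytes, had 79.1, 21.8 and 25.2 in knockouts and 8.77, 32.5 and 32.4 in controls. In the Ring1 table these genes stood at 0 to 18 reads a library. Cd48, a receptor of lymphocytes and myeloid cells, had at most 7.89 in the Eed table and 6.65 in the Ring1 table and passed the filter in neither. Cd52 and Coro1a overlap 172 and 26 exonic bases of genes on the other strand (Crybg2 and Bola2), whose reads cannot be set apart unless the library marked strand.

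Myeloid genes were low, and several were near 0. Csf1r, the receptor for Il34 and Csf1, had 57.6, 8.30 and 97.8 in Eed knockouts and 22.4, 44.6 and 179 in controls, with control 3 high as for Cd207. Its exons share 873 bases with Hmgxb3 on the other strand, so its counts may hold reads of that gene. Ring1 values of Csf1r were 8.03 and 1.79 in 2KO libraries and 13.5 and 6.65 in controls. Cd68, a lysosomal protein of macrophages also found in other cells, had 121, 59.1 and 96.2 in Eed knockouts and 118, 6.09 and 141 in controls, with control 2 far below the rest. Its Ring1 values were 83.4 and 28.7 in 2KO libraries and 58.3 and 118 in controls, which overlapped. Tyrobp, the adaptor DAP12, had 30.0, 35.3 and 24.5 in Eed knockouts and 52.6, 54.8 and 62.7 in controls, without overlap. Its log2 fold change was −0.91 (95% interval −1.89 to 0.068, unadjusted p = 0.0648, limma adjusted p = 0.989). Ring1 values of Tyrobp were 4.94 and 0 in 2KO libraries and 12.0 and 4.99 in controls, which is 8 and 0 reads against 23 and 3.

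Other myeloid markers were lower still. Lyz2, a lysozyme of macrophages and neutrophils whose reads can be split with its near-identical copy Lyz1, reached at most 9.59 in the Eed table and 3.32 in the Ring1 table. Mpeg1, a pore-forming protein of macrophages, had 4.8, 1.04 and 26.0 in Eed knockouts and 0, 0 and 4.05 in controls, with knockout 3 far above the rest and a limma adjusted p of 0.989. Aif1, an actin-linked protein of macrophages, had 8.39, 11.4 and 0 in knockouts and 7.79, 32.5 and 4.05 in controls, and Fcer1g, the Fc receptor gamma chain, had 12.0, 6.22 and 48.9 in knockouts and 7.79, 16.2 and 33.4 in controls. The defining macrophage genes C1qa, C1qb and C1qc, from another fixed list, did not exceed 6.0 in any Eed library. Summed over the 8 myeloid genes, knockouts held 267, 141 and 327 and Eed controls 222, 163 and 439, and 2KO libraries 115 and 37.7 and Ring1 controls 113 and 143.

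T cell genes were low, and Cd3d stood above its partners. In the Ring1 libraries several had 3 reads or fewer, among them Cd3e in control 2 and Cd3g in 2KO library 2. Cd3d, Cd3e and Cd3g encode the delta, epsilon and gamma chains of CD3 and lie together on chromosome 9, Cd3g and Cd3d head to head with 1354 bases between them. Cd3d (ENSMUSG00000032094.8, chr9:44981786-44987339) had 63.5, 71.6 and 79.7 in Eed knockouts and 97.4, 124 and 68.8 in Eed controls. Cd3e (ENSMUSG00000032093.7, chr9:44998740-45009627) had 24.0, 14.5 and 52.1 in knockouts and 52.6, 41.6 and 56.6 in controls. Cd3g (ENSMUSG00000002033.14, chr9:44969572-44980431) had 46.8, 13.5 and 26.0 in knockouts and 36.0, 13.2 and 19.2 in controls. The groups overlapped for each, with log2 fold changes of −0.39 for Cd3d (95% interval −1.27 to 0.48), −0.89 for Cd3e (−2.15 to 0.37) and 0.27 for Cd3g (−1.19 to 1.74), each with a limma adjusted p of 0.989 to 0.990.

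In the Ring1 libraries Cd3d stood further above Cd3e and Cd3g. Cd3d had 184 and 301 in 2KO libraries and 161 and 146 in controls, both 2KO libraries above both controls, with a log2 fold change of 0.61 (95% interval −0.15 to 1.37, limma adjusted p = 0.567). Cd3e had 30.9 and 10.8 in 2KO libraries and 9.90 and 3.32 in controls, and Cd3g had 4.33 and 5.38 in 2KO libraries and 3.13 and 6.65 in controls. Per length, as RPKM (recovered reads scaled to depth and to merged exon length), Cd3d averaged 11.6 in 2KO libraries and 6.78 in Ring1 controls. On that scale Cd3e averaged 0.427 in 2KO libraries and 0.127 in controls, and Cd3g 0.128 in 2KO libraries and 0.122 in controls. In the Eed table, per length, Cd3d averaged 1.15 in knockouts and 1.49 in controls. Cd3e averaged 0.219 in knockouts and 0.353 in controls, and Cd3g 0.249 in knockouts and 0.202 in controls. By group means Cd3d was the most abundant of these 3 chains per length in all 4 groups. No annotated exon of another protein-coding gene overlaps their exons, and other types of gene were not checked. Cd247, the zeta chain, which is no member and was added after its values were seen, averaged 3.85 in 2KO libraries and 4.91 in Ring1 controls per length. Of its 5329 exonic bases, 3007 are shared with Pou2f1 on the other strand, so that level is uncertain. Summed over the 9 T and NK cell genes, 2KO libraries held 260.2 and 341 normalised read counts and Ring1 controls 187 and 184. Their share of the immune sum was 19.8% to 33.8% in 2KO libraries and 15.7% to 15.8% in Ring1 controls, most of it Cd3d. The T cell receptor constant genes are not analysed here.

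**Figure D4:**
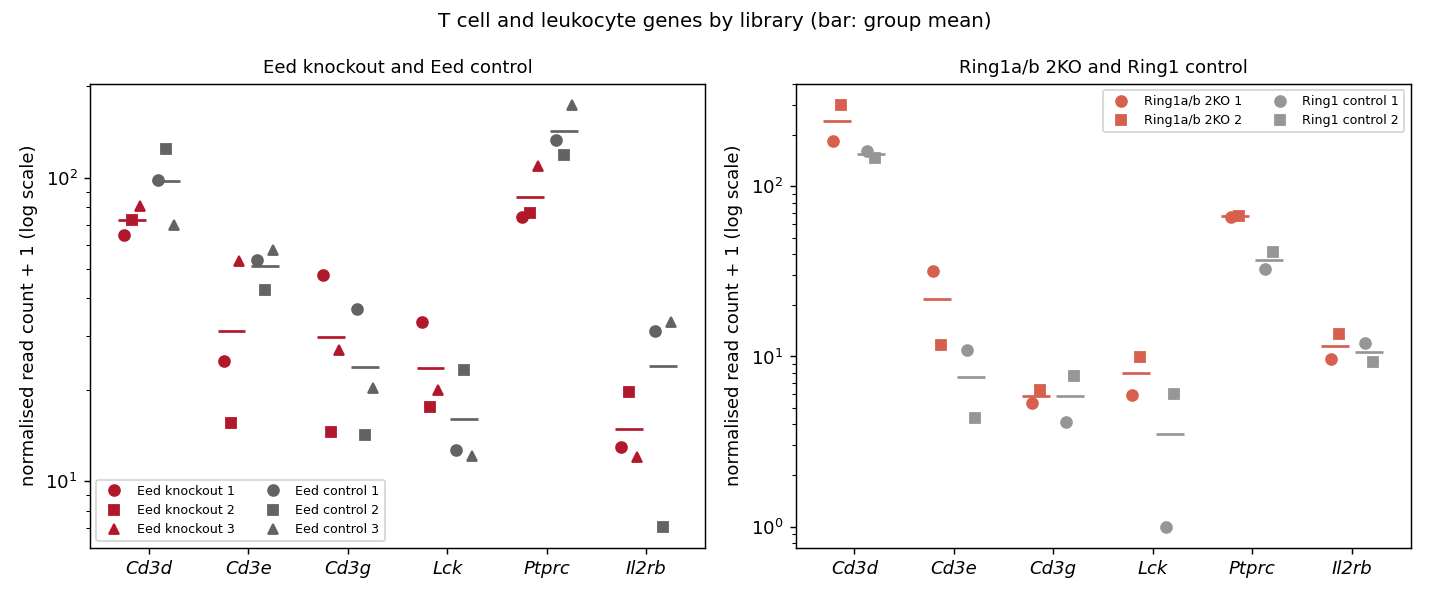
Each point is 1 library, with its normalised read count + 1 on a log y axis, knockout left of control for each gene, and the bar at the group mean. Cd3d lies above Cd3e and Cd3g in both panels, by more in the Ring1 libraries. Ptprc is lower in all Eed knockouts than in Eed controls, and higher in both 2KO libraries than in Ring1 controls.

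The other T and NK cell genes were low. Lck, the kinase that phosphorylates CD3, had 32.4, 16.6 and 18.9 in Eed knockouts and 11.7, 22.3 and 11.1 in controls. Il2rb, a chain of the receptor for IL-2 and IL-15, had 12.0, 18.7 and 11 in Eed knockouts and 30.2, 6.09 and 32.4 in controls, and 8.65 and 12.6 in 2KO libraries and 10.9 and 8.31 in Ring1 controls. Cd28, a costimulatory receptor, had 3.60, 7.26 and 28.4 in Eed knockouts and 9.74, 4.06 and 17.2 in controls. Ptprcap, a CD45-associated protein, had 18.0, 5.19 and 17.4 in Eed knockouts and 11.7, 13.2 and 18.2 in controls, and its exons overlap Coro1b and Rps6kb2 over 432 and 1224 bases, so its counts are uncertain. Cd2, an adhesion receptor, reached at most 17.2 in the Eed table and 1.85 in the Ring1 table, and Nkg7, a cytotoxic granule protein, 4.8 and 6.18. Neither passed the filter in either table. Over the T and NK cell genes the median log2 fold change was −0.23 for 7 tested in the Eed knockout and 0.38 for 4 tested in the 2KO, none called. The Eed median was 0.22 without knockout 2 and −0.47 without knockout 3, and the 2KO median was 0.49 to 0.75 with any 1 library left out.

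Chemokine receptors were read beside the ligands that keratinocytes make. Cx3cr1, the fractalkine receptor of myeloid cells, had 24.0, 18.7 and 33.1 in Eed knockouts and 10.7, 5.07 and 14.2 in Eed controls, all knockouts above all controls. Its ratio of means was 2.53 and its log2 fold change 1.32 (95% interval −0.12 to 2.76, unadjusted p = 0.0678, limma adjusted p = 0.989). Its ligand Cx3cl1 had 384, 482 and 267 in Eed knockouts and 441, 838 and 499 in controls, which overlapped. Ccr6, the receptor for Ccl20, had 13.2, 22.8 and 17.4 in Eed knockouts and 29.2, 10.1 and 25.3 in controls, and 10.5 and 7.17 in 2KO libraries and 9.38 and 8.31 in Ring1 controls. Ccl20 had 211, 133 and 251 in Eed knockouts and 69.1, 148 and 180.0 in controls.

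Il34, which maintains Langerhans cells through Csf1r, had 1174, 1809.8 and 1811 in Eed knockouts and 2108, 2001 and 2126 in Eed controls, each knockout below each control, as for 4.15% of all tested genes. Groups were fully apart, in either direction, for 4 of 18 genes of the ligand list (22.2%), beside 9.2% of all genes. The Il34 log2 fold change was −0.41 (95% interval −0.88 to 0.064, limma adjusted p = 0.989). Ring1 values of Il34 were 365 and 131 in 2KO libraries and 466 and 269 in controls. Il15, a growth factor of epidermal T cells that signals through Il2rb, had 74.3, 153 and 52.1 in Eed knockouts and 137, 142 and 123 in controls. Of the list of ligands and receptors that pair with these genes, limma called 0 of 18 tested in the Eed knockout and 0 of 17 in the 2KO, and the authors' deposited table called 0 in both. At an unadjusted p under 0.05 stood 3 of the 18 (16.7%) in the Eed knockout, beside 4.73% of all genes, and 2 of the 17 (11.8%) in the 2KO, beside 10.4%. By limma 7 of the 18 had a positive log2 fold change in the Eed knockout and 11 a negative one. In the authors' deposited table Ccl2 had 1.29 (adjusted p = 0.289) and Cd274 had −0.76 (adjusted p = 0.323) in the Eed knockout.

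The wider lists of immune genes held 0 limma calls. limma called 0 of 18 further Langerhans and dendritic cell genes, 0 of 10 further class II pathway genes, 0 of 9 macrophage and monocyte genes and 0 of 18 further T cell genes in the Eed knockout, with 2, 0, 0 and 0 at an unadjusted p under 0.05. The 2 of 18 are 11.1%, beside 4.73% of all genes. In the 2KO it called 0 of 16, 0 of 8, 0 of 7 and 0 of 13, with 4, 0, 0 and 3 at an unadjusted p under 0.05. The 4 of 16 are 25.0% and the 3 of 13 are 23.1%, beside 10.4% of all genes. The authors' deposited table called Fscn1 higher in the Eed knockout, with a log2 fold change of 2.28 and an adjusted p of 0.0411, where it called 0.761% of all genes. Fscn1, an actin-bundling protein of mature dendritic cells and of other motile cells, had 1661, 201 and 304 in Eed knockouts and 163, 131 and 153 in controls, with knockout 1 far above the rest. The authors' deposited table also called Mfge8 (log2 fold change 1.98, adjusted p = 0.000318) and Runx3 (2.32, adjusted p = 0.0340) higher in the 2KO, where it called 1.49% of all genes. Mfge8, a secreted protein that bridges dying cells to phagocytes, had 422 and 567 in 2KO libraries and 91.7 and 163 in controls. Runx3, a transcription factor of Langerhans and T cells also expressed outside the immune system, had 72.9 and 120.1 in 2KO libraries and 13.5 and 26.6 in controls. Other genes of the Langerhans and dendritic cell list lay lower. By limma 9 of its 18 tested genes had a negative log2 fold change in the Eed knockout and 5 of 16 in the 2KO. In the authors' deposited table Irf8 had −2.32 in the Eed knockout (adjusted p = 0.666) and Cd83 had −2.02 in the 2KO (adjusted p = 0.104). Of the further T cell genes, Cd5 had 1.24 there in the Eed knockout (adjusted p = 0.632) and 2.00 in the 2KO (adjusted p = 0.355). By limma 10 of the 18 tested genes of that list were negative in the Eed knockout and 6 of 13 in the 2KO. Its groups were fully apart for 7 of the 13 (53.8%) in the 2KO, beside 42.9% of all genes. Lists of B and plasma cells, neutrophils and mast cells held 4, 2 and 1 tested genes in the Eed table and 3, 2 and 1 in the Ring1 table, with 0 called by limma and 0 by the authors' deposited table.

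Other cells and the sort markers were read beside these values. Epcam had 5886, 4037 and 3597 in Eed knockouts and 3819, 5708 and 3919 in Eed controls, and 1845 and 938 in 2KO libraries and 1767 and 1203 in Ring1 controls. Itga6, which encodes α6-integrin, had 9738 and 9343 in 2KO libraries and 17301 and 13462 in Ring1 controls (log2 fold change −0.68, limma adjusted p = 0.372). Its log2 fold change in the Eed knockout was −0.34 in the authors' deposited table. Ly6a, which encodes Sca1, had 0.38 there in the 2KO and 0.14 in the Eed knockout, and none of these was called. Of 8 basal keratinocyte genes limma gave 4 an unadjusted p under 0.05 in the 2KO, beside 10.4% of all genes, and 0 in the Eed knockout, beside 4.73%. In the 2KO 7 of the 8 had a negative log2 fold change, with a median of −0.49, and the groups were fully apart for 6, beside 42.9% of all genes. Melanocyte markers summed to 366 and 127 normalised read counts in 2KO libraries and 59.4 and 94.7 in Ring1 controls. All 4 tested had a positive log2 fold change (median 1.38), 2 of them at an unadjusted p under 0.05. Fibroblast markers summed to 93.9 and 108 in 2KO libraries and 52.1 and 66.5 in Ring1 controls. Of these, 3 of 3 tested were positive and 1 (33.3%) had an unadjusted p under 0.05, beside 10.4% of all genes. Endothelial markers summed to 504 and 398 in 2KO libraries and 516 and 474 in Ring1 controls. In the Eed table melanocyte markers summed to 223, 191 and 324 in knockouts and 335, 141 and 334 in controls, and fibroblast markers to 95.9, 46.7 and 245 in knockouts and 57.5, 28.4 and 183 in controls, with overlap in both. Merkel cell markers, with 2 genes tested in the Eed table and 1 in the Ring1 table, were fully apart by sum in both. Single genes were fully apart for 9.2% and 42.9% of all tested genes. The mean count in the Eed table was 58.8 for Isl1, 6.93 for Sox2 and 1.21 for Krt20, so that sum is mostly Isl1. Isl1 was the only gene of the list tested in the Ring1 table, and the number of Merkel cells was not tested. The sums were 234, 121 and 28.4 in Eed knockouts and 2.92, 8.12 and 7.08 in Eed controls. They were 36.5 and 140 in 2KO libraries and 2.60 and 15.0 in Ring1 controls. limma called 0 of the tested keratinocyte, sort, fibroblast, endothelial, melanocyte, Merkel cell and red blood cell markers. The authors' deposited table called Mlana and Isl1 higher in the Eed knockout, where it called 0.761% of all genes. Mlana had a mean count of 16.2. Of the other melanocyte genes, Dct, Tyr and Pmel had log2 fold changes of −0.0063, −0.42 and −0.47 there and were not called. Sox10 had 3.66 at a mean count of 1.17. In the 2KO the authors' deposited table called Isl1, of the Merkel cell list, higher, where it called 1.49% of all genes. The part of the sort and of these other cells in the immune values, the higher Cd3d of the 2KO included, was not tested.

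Libraries of 1 group differed in their immune genes. Over genes with a mean of at least 50, the median SD of log2 values was 0.446 in Eed knockouts and 1.03 in Eed controls for 10 immune genes, beside 0.304 and 0.279 for all 12569 genes. In the Ring1 table it was 0.50 in 2KO libraries and 0.153 in controls for 7 immune genes, beside 0.221 and 0.183 for all 11379. The immune genes were not matched to all genes by count level, and the part that level plays in these SDs was not tested. Eed control 3 held the highest value for 14 of the 26 tested genes, among them Cd207, Cd74, Csf1r, Laptm5, Cd52, Ptprc and Cd3e, while knockout 2 held the highest for 0. Without control 3 the median log2 fold change of the 26 genes was 0.30, and without knockout 2 it was 0.40. In 2KO library 2, 17 of the 30 genes had 3 reads or fewer, against 7 in 2KO library 1, and 10 and 15 in Ring1 controls 1 and 2.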

How the data were processed

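The authors' deposited tables, 1 per knockout, hold a signal for each gene and library: its count over 1 size factor. Per the submitters' processing notes, kallisto 0.42.5 and DESeq2 3.11 were used with mm10. Log2 fold changes, p-values and the Wald statistic, a score, are the authors' deposited columns and are named as theirs where used. Sequencing was paired-end at 150 nucleotides from 10 ng of amplified total RNA, per the labels' protocols, and strand is not given in the sources used here. In all 10 libraries 100% of values were whole multiples of 1 step (tolerance 1e-06), so whole reads were recovered, with totals of 6237389 to 40701183.

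limma 3.58.1 (trend, robust) was fitted on log2(value + 1), which understates the change of low genes, over genes whose mean reached 5, each knockout against its own controls within its table. edgeR 4.0.16 and DESeq2 1.42.0 (R 4.3.3) on recovered reads, other filters, pseudocounts, scalings, a block for the replicate number and leaving out single libraries were alternatives. limma was tested on simulated data. The genes and lists were chosen with earlier results of these data known. All 32 genes were described, with per-library values for more of them than the rule (a mean of at least 50) asked. For each other list the rule was up to 4 genes by smallest unadjusted p, and it was not followed for every list. Ligands were also named as partners of the immune genes. Krt5, Ciita, Cd247 and the C1q genes lie outside that rule too. Positions and exon lengths are from GENCODE M21 (GRCm38), for 30 of the genes. Amplified reads are not independent molecules, so intervals and floors of 3 reads cover counting error only. Python 3.11.15 with scipy 1.17.1 gave exact intervals.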

Additional observations from a re-analysis of the deposited data

How the results depend on the processing

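The count of immune genes called stayed at 0 in the Eed comparison under every alternative run, and in the Ring1 comparison under all but 1: without 2KO library 1 it was 1, Cd74, and over the libraries left out in turn it ranged over 0 to 1. Over all genes limma called 0 in the Eed comparison, 0 to 4 with 1 library left out (2 without control 2 and 4 without knockout 2), and 1 with the replicate block, while DESeq2 on recovered reads and the authors' deposited table each called 127. In the Ring1 comparison limma called 6, 10 with no filter, 36 with the replicate block, 0 to 565 with 1 library left out (0 without either control, 565 without 2KO library 1 and 13 without 2KO library 2), and edgeR called 0 and DESeq2 238, with 231 called in the authors' deposited table. The threshold of 0.1 gave 0 for Eed and 9 for Ring1. The median log2 fold change of the immune genes ranged over −0.44 to 0.40 in the Eed comparison and −0.30 to 0.007 in the Ring1 comparison as each library was left out. In the Ring1 comparison it was −0.71 with quantile normalization and 0.24 by edgeR over the 10 genes that passed its filter; the cause of the first was not tested. The replicate numbers were not taken to pair the libraries. Deviations of same-numbered Eed libraries correlated at −0.11, 0.15 and 0.21 over genes. Knockout 1 was closest to control 2, while knockouts 2 and 3 were closest to the control of their own number. Column headings of same-numbered Eed libraries share a letter, and what it marks is not given. In the Ring1 libraries, with only 2 pairs, the value was 0.14. Depth there went with the number, at 25158144 and 19814853 reads for control 1 and 2KO library 1. Control 2 and 2KO library 2 had 7162907 and 6237389, and the part of this in the fit was not tested. With the replicate block 0 immune genes were called in either comparison. Depth limits the Ring1 comparison, where 14 of 30 immune genes had a mean under 5.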

Other observations

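A pair of ratios between class II genes lay fully apart between the groups. They were chosen on reading the values, among 4 ratios examined, and are a description with no test. The count of H2-Eb1 over that of H2-Aa was 1.14, 0.858 and 1.65 in Eed knockouts 1 to 3 and 0.784, 0.796 and 0.769 in Eed controls 1 to 3, so each knockout lay above each control. In the Ring1 table it was 1.56 and 5.24 in 2KO libraries 1 and 2 and 0.895 and 1.53 in controls 1 and 2, again with no overlap. The count of Cd74 over that of H2-Ab1 was 1.01, 0.903 and 1.01 in Eed knockouts and 1.07, 1.22 and 1.06 in Eed controls, each knockout below each control. It was 0.484 and 0.210 in 2KO libraries and 0.602 and 0.754 in Ring1 controls. Single genes lay fully apart for 9.2% of all tested genes in the Eed table and for 42.9% in the Ring1 table, and the 2 ratios were picked, so nothing is read from their order. The ratio of Cd3d to Cd3e showed no such order in the Eed table, at 2.65, 4.93 and 1.53 in knockouts and 1.85, 2.98 and 1.21 in controls.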
